A study of Homo sapiens with 8 samples.

Results

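The genes described here are 33 zinc finger genes that lie side by side on the short arm of human chromosome 19, in band 19p12, around ZNF91. The members were chosen by gene symbol. Of the 33 genes, 30 were read by at least 1 probeset (a set of array probes summed to 1 value) annotated to that symbol alone, out of 18417 genes read that way on the arrays. For each gene the brightest such probeset was used. ZNF66 had no probeset with its name. ZNF98 occurred only in a probeset that carried 3 symbols, and ZNF728 only in one that carried 8.

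Most genes of this cluster encode KRAB zinc finger proteins. Their zinc fingers bind DNA, and the KRAB domain recruits the corepressor TRIM28, which brings in the histone methyltransferase SETDB1 and heterochromatin proteins. The cluster grew by repeated duplication in primates, so its genes resemble each other closely. ZNF91 is known for repressing SVA retrotransposons and ZNF93 for repressing a group of L1 elements.

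The cells were DU145, an established prostate carcinoma line. They were grown with 10% FBS, moved to 0% FBS and treated on day 2. The Mock group was left untreated. The FGF19 group received the growth factor FGF19 at 50 ng/ml with heparin at 100 µg/ml for 100 min. The TNFα group received the inflammatory cytokine TNFα at 50 ng/ml for 90 min. The FGF19 + TNFα group received FGF19 and heparin 10 min ahead of TNFα, which was then present for 90 min. Each of the 4 groups had 2 arrays, labelled as biological replicates. Heparin was given only with FGF19, so the effects of FGF19 and of heparin cannot be told apart, and every difference called FGF19 here is that of the pair. The methods of the study give lower heparin and TNFα doses than the sample labels, which are used here.

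Each value is a PLIER signal, a summary of probe brightness in linear units with no absolute scale. Signals can be compared between arrays for 1 gene, but not between genes. Differences are between group means of log2 signal, with the standard error (SE) and the Benjamini-Hochberg adjusted p of limma over all 33297 probesets. The word called is kept for genes whose adjusted p was under 0.05. The number of arrays, 2 a group, limits the precision.

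The arrays had median signals of 99.5 to 106.6. The 20th percentile of signal was 30.7 to 31.6 on the 4 arrays without FGF19 and 34.6 to 36.6 on the 4 with it, and the part of this difference in dim genes was not tested. Arrays of 1 group correlated at 0.967 to 0.98 over all probesets, and arrays that differed in FGF19 at 0.933 to 0.959. The epithelial markers KRT8, KRT18, KRT19, EPCAM and CDH1 had signals of 532 to 3620. In both comparisons of FGF19 described below, 2 of these 5 were called lower, KRT8 and KRT19. CDH1 was called higher in FGF19 + TNFα against TNFα (log2 difference 0.34, adjusted p = 0.0355) and not in FGF19 against Mock (0.23, adjusted p = 0.102). The part of these markers in the results below was not tested. KLK3 and KLK2, markers of luminal prostate cells, had signals of 37.4 to 53.8 and 56.3 to 79.4. Markers of other cell types were measured for 7 of 8 genes. PTPRC, which marks blood cells, lay below the 20th percentile on all 8 arrays, and LYZ on 3. CD3E, PECAM1, VWF, COL1A2 and ACTA2 lay below it on 0 arrays. The summed signal of the 7 markers was 322 to 335 in Mock, 336 to 385 in FGF19, 311 to 317 in TNFα and 365 to 379 in FGF19 + TNFα. Of these 7 markers, 2 were called higher in FGF19 and 3 in FGF19 + TNFα against TNFα, and their part in the results below was not tested. All 5 genes fixed as a check of TNFα treatment, among them TNFAIP3, were called higher in both comparisons of TNFα.

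The promoters of these genes are shown first because they share a layout that the choice of members did not use. RefSeq windows from 250 bases before to 50 bases after a gene's start (GRCh38.p14) were given for 25 of the 33 members, in 26 windows. ZNF98, ZNF738, ZNF728, ZNF506, ZNF729, ZNF253, ZNF676 and ZNF99 had none. The stretches below run 5′ to 3′ on the strand of the gene and end close to its start. Capitals mark CCAAT and CTTCCGG, the reverse complement of CCGGAAG. The term ETS core here means exactly the letters CCGGAAG, and shorter or other spellings of an ETS site were not searched. The first 4 belong to genes that were called higher with FGF19 alone, and the last 4 to genes that were not. Both kinds can thus be compared base by base, but they are examples and do not show how common a feature is. Of the last 4, ZNF492 was called higher with FGF19 in the presence of TNFα, and the values of ZNF208 are uncertain, as described below. The called genes ZNF93, ZNF429 and ZNF626, not shown, do not have the letters CCGGAAG on either strand of their windows. Among the genes not called, ZNF714, not shown, and ZNF90 have none.
ZNF91, chr19:23395470-23395571, minus strand: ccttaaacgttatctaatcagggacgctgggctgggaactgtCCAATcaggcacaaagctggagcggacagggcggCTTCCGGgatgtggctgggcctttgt
ZNF431, chr19:21141940-21142041, plus strand: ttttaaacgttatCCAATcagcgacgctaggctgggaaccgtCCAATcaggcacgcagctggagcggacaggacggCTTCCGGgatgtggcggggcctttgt
ZNF737, chr19:20565780-20565880, minus strand: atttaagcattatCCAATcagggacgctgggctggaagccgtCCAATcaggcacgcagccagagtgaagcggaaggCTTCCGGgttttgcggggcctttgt
ZNF43, chr19:21836181-21836282, minus strand: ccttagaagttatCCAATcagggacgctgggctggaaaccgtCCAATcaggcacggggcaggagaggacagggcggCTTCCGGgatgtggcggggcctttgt
ZNF492, chr19:22634230-22634331, plus strand: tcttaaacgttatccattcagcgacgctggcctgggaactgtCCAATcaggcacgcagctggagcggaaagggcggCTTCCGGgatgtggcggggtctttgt
ZNF208, chr19:22010937-22011037, minus strand: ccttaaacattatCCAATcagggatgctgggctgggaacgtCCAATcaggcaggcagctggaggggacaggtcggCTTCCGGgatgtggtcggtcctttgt
ZNF726, chr19:23914786-23914887, plus strand: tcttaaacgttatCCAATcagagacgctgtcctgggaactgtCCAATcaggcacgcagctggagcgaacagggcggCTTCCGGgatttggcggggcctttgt
ZNF90, chr19:20077905-20078006, plus strand: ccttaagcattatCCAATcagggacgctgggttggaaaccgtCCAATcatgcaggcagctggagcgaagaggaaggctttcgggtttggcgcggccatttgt

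Over the full windows of 300 bases, the members were a median of 80.1% identical to the ZNF91 window (range 51.6% to 86.0%, 25 windows). Over all 325 pairs of member windows the median identity was 76.9% (48.9% to 91.0%). Windows of 2 other zinc finger clusters of chromosome 19 were less like that of ZNF91, with medians of 53.0% for 19p13.2 (26 windows) and 50.2% for 19q13.31 (20 windows). Windows of duplicated genes are not independent promoters, so motif counts over them are given as a description.

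The letters CCAAT, searched on both strands, occurred in 25 of 26 member windows (96.2%), against 34.6% of all 35116 RefSeq windows and 42.0% of 493 windows of other numbered ZNF genes. At least 2 copies occurred in 18 member windows (69.2%), against 10.8% of all windows. The ETS core CCGGAAG occurred in 20 (76.9%), against 10.3% of all windows and 33.3% of those of other ZNF genes. Both features together, at least 2 CCAAT and an ETS core, were found in 13 member windows (50.0%), 1.05% of all windows and 5.48% of those of other ZNF genes. The median position of the ETS core was 22 bases before the start (recorded as -22). CCAAT was added to the search after these sequences had been seen.

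Other letters were searched in the same way, and some of them, such as those of SP1, NF-κB and YY1, can overlap a CCAAT or an ETS match. GGGCGG, an SP1 core, was present in 19 member windows (73.1%), in 45.0% of all windows and in 61.9% of those of other ZNF genes. GGGNNTTCC or GGGNNTCCC, spellings of an NF-κB site, occurred in 3 member windows (11.5%), against 13.5% of all. TGANTCA (AP-1), TGACGTCA (CRE) and CACGTG (E-box) occurred in 0 of 26, and in 7.71%, 1.85% and 7.26% of all windows. TGCGCA (the NRF1 core) and AAGATGGC (the YY1 core) each occurred in 1 member window (3.85%), against 8.24% and 2.89% of all. A match is only a match of letters in this window and no evidence that a factor binds.

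**Figure D1:**
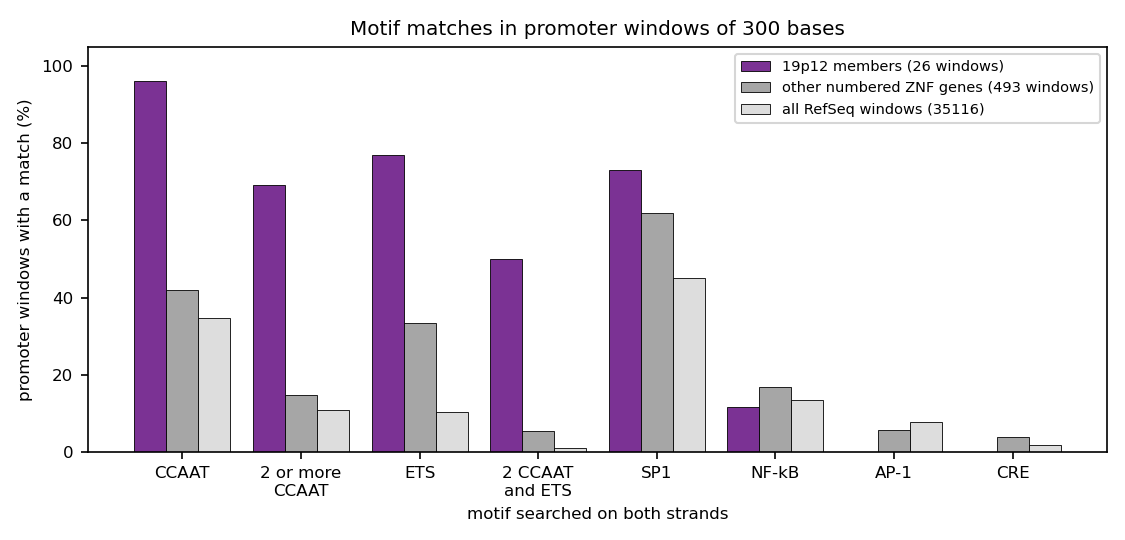
Share of RefSeq promoter windows with each motif, in percent, for 26 windows of the 19p12 genes (purple), 493 windows of other numbered ZNF genes (grey) and all 35116 windows (light grey). CCAAT was found in 96.2% and the ETS core, searched as CCGGAAG, in 76.9% of the member windows, while AP-1 and CRE were found in none of the 26.

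The first comparison asked which of these genes changed with FGF19 and heparin when no TNFα was given. Of the 30 genes, 21 were called higher in FGF19 than in Mock and 0 lower. Over all probesets, 18.2% were called higher and 14.1% lower. All 30 had a difference above 0, as did 57.5% of all probesets. The median log2 difference of the 30 was 0.86 and their range 0.12 to 1.94, beside a median of 0.08 over all probesets. Among them, 13 were called and at least 2-fold higher, which held for 2.94% of all probesets. The SE of single genes ran from 0.10 to 0.54. In bulk RNA such as this, a change in how many cells express a gene and a change in its RNA per cell cannot be told apart.

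The same question was then asked in the presence of TNFα, on the other 4 arrays. In FGF19 + TNFα against TNFα, 23 of the 30 genes were called higher and 0 lower, beside 19.4% and 12.9% of all probesets. All 30 differences again lay above 0, against 59.3% of all probesets. Their median was 1.14 and their range 0.01 to 2.84, beside a median of 0.10 over all probesets, and 17 were called and at least 2-fold higher, against 2.65% of all. Both comparisons called 20 genes higher, while 6 genes were called in neither. The shares of all probesets called in both or in neither were not counted, so these counts only describe the members. For 24 of the 30 genes all 4 arrays with FGF19 lay above all 4 without it, a separation seen in 25.5% of all probesets. The opposite separation occurred for 0 members and 18.4% of all probesets. The 2 comparisons use different arrays. Across the 30 genes their differences correlated at 0.68, and at 0.91 without ZNF492, beside 0.64 across all probesets. Genes, and duplicated genes above all, are not independent replicates, so these correlations are descriptions.

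**Figure D2:**
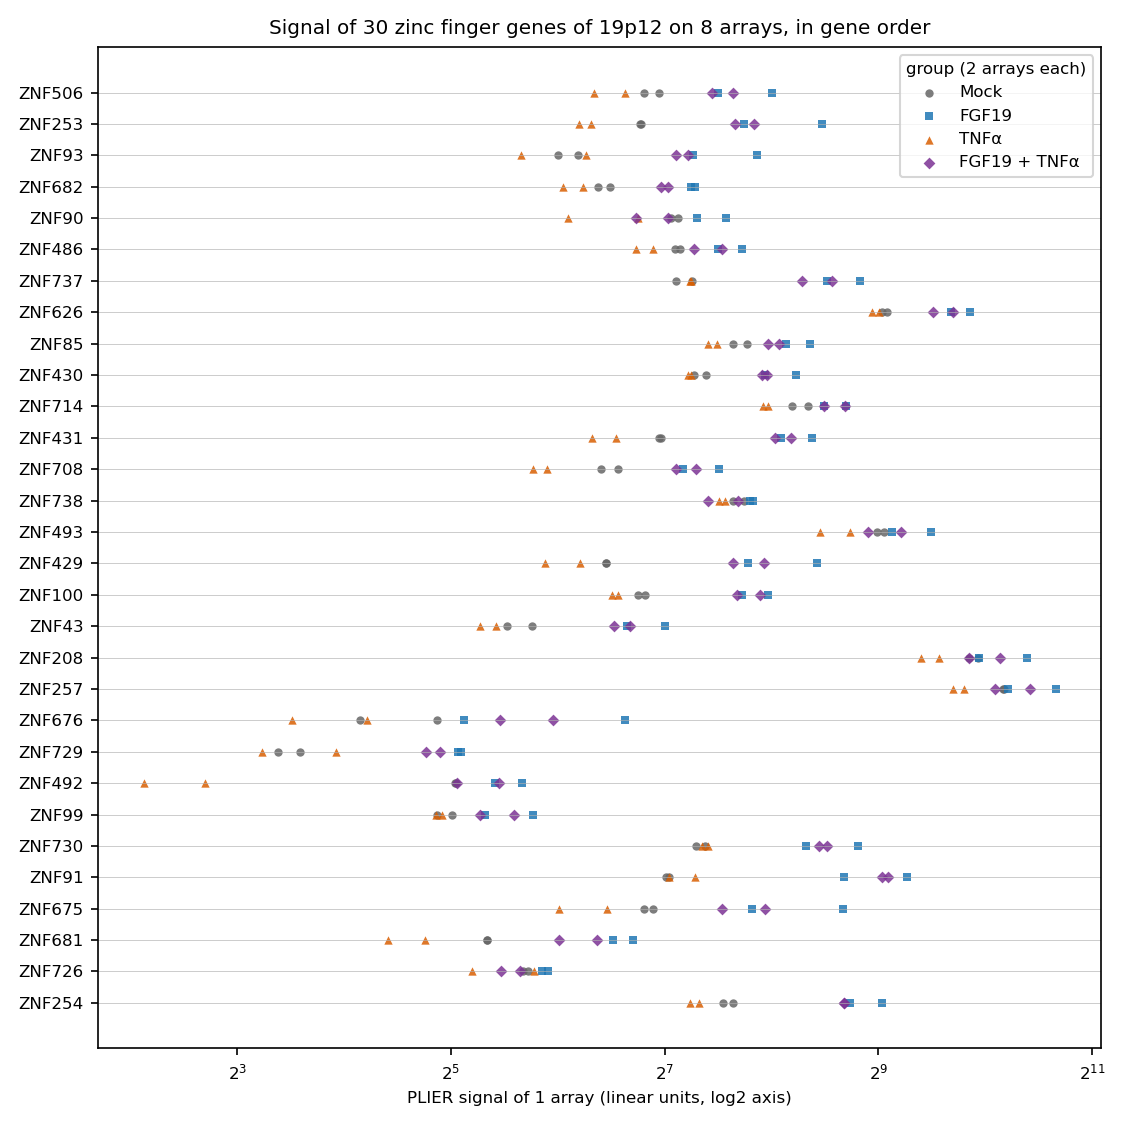
PLIER signal of the brightest probeset of each of 30 genes on each of 8 arrays (log2 axis), with genes from top to bottom in their order along the cluster and 1 symbol per array. For 24 genes the 4 arrays with FGF19 (squares and diamonds) lie to the right of all 4 arrays without it (circles and triangles).

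ZNF91, the repressor of SVA elements, had the largest rise with FGF19 alone. Its signal was 129 and 132 in Mock, 618 and 409 in FGF19, 156 and 132 in TNFα, and 524 and 545 in FGF19 + TNFα. The lowest array with FGF19 stood far above the highest without it, and the groups did not overlap. The log2 difference was 1.94 (SE 0.20, adjusted p = 0.00281) for FGF19 against Mock and 1.90 (SE 0.20, adjusted p = 0.00348) in the presence of TNFα. These are rises of 3.85-fold and 3.72-fold.

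ZNF93, the repressor of L1 elements, gave 63.9 and 72.9 in Mock, 233 and 154 in FGF19, 50.3 and 76.8 in TNFα, and 138 and 149 in FGF19 + TNFα. The groups with FGF19 lay above the others on every array. It rose by 1.47 on the log2 scale (SE 0.26, adjusted p = 0.00861), and by 1.20 with TNFα present (SE 0.26, adjusted p = 0.0176). ZNF675, known as an inhibitor of the TRAF6 signalling adaptor, gave 112 and 119 in Mock, 406 and 226 in FGF19, 88.2 and 64.5 in TNFα, and 246 and 186 in FGF19 + TNFα. The spread between the FGF19 arrays was wide, but both were above every array without FGF19. Its rises were 1.39 (SE 0.31, adjusted p = 0.0172) and 1.50 (SE 0.31, adjusted p = 0.0143).

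The remaining genes with the largest rises have less known about them individually. ZNF429 had 87.2 and 87.4 in Mock, 345 and 220 in FGF19, 74 and 58.8 in TNFα, and 244 and 200 in FGF19 + TNFα. Every array with FGF19 was well above every array without it. The differences were 1.66 (SE 0.23, adjusted p = 0.00453) and 1.74 (SE 0.23, adjusted p = 0.0046).

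ZNF737 had 153 and 138 in Mock, 454 and 367 in FGF19, 151 and 152 in TNFα, and 378 and 313 in FGF19 + TNFα. The Mock and TNFα arrays were close together and the other 4 stood well above. The differences were 1.49 (SE 0.14, adjusted p = 0.00276) and 1.18 (SE 0.14, adjusted p = 0.00383). ZNF431 had 125 and 123 in Mock, 332 and 272 in FGF19, 79.9 and 93.2 in TNFα, and 262 and 290 in FGF19 + TNFα. Its differences were 1.28 (SE 0.13, adjusted p = 0.00286) and 1.67 (SE 0.13, adjusted p = 0.00348), so its signal with FGF19 was above that of both groups without it.

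ZNF729 was the dimmest gene, below the 20th percentile on all 8 arrays. Its signal was 12 and 10.4 in Mock, 34.2 and 33.5 in FGF19, 9.36 and 15.2 in TNFα, and 27.2 and 29.7 in FGF19 + TNFα. The arrays with FGF19 did not overlap the others, and the differences were 1.60 (SE 0.22, adjusted p = 0.00431) and 1.25 (SE 0.22, adjusted p = 0.00942). With 16 added before log2 they were 0.87 and 0.66, both still called. The signals stayed within the dim range in which the 20th percentile itself was higher on arrays with FGF19.

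ZNF676, also dim, had 17.7 and 29.2 in Mock, 98.9 and 34.8 in FGF19, 18.5 and 11.4 in TNFα, and 62 and 43.9 in FGF19 + TNFα. Its FGF19 replicates differed by more than those of any other gene named here. The difference of 1.37 for FGF19 against Mock was not called (SE 0.54, adjusted p = 0.103), while that of 1.84 in the presence of TNFα was (SE 0.54, adjusted p = 0.0438), and this call was lost with quantile or cyclic loess normalization. With 16 added before log2 the latter difference was 1.15 (adjusted p = 0.0355).

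Another 11 genes were called higher in both comparisons without being among those above. ZNF253, ZNF254, ZNF681, ZNF730, ZNF43 and ZNF100 rose by 1.06 to 1.33 on the log2 scale with FGF19 alone and by 1.10 to 1.61 in the presence of TNFα. ZNF506, ZNF708, ZNF682, ZNF430 and ZNF486 rose by 0.50 to 0.87 and by 0.59 to 1.37. ZNF254, the last gene of the cluster, shows the size of these rises, with 187 and 200 in Mock, 523 and 425 in FGF19, 160 and 151 in TNFα, and 411 and 411 in FGF19 + TNFα. ZNF506, the first gene, had 112 and 123, 256 and 181, 98.8 and 81, and 200 and 174 in the same order of groups. Called genes were thus found at both ends of the cluster.

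ZNF626 and ZNF85 were also called higher in both comparisons. ZNF626, 1 of the 3 genes with the brightest probesets, had 524 and 543 in Mock, 926 and 821 in FGF19, 513 and 492 in TNFα, and 728 and 833 in FGF19 + TNFα. The groups with FGF19 did not overlap the others. The differences were 0.71 (SE 0.11, adjusted p = 0.00537) and 0.63 (SE 0.11, adjusted p = 0.00827). Its second, dimmer probeset gave 0.93 (SE 0.26, adjusted p = 0.0355) and 0.74 (SE 0.26, adjusted p = 0.0709), the latter not called. ZNF85 gave 0.54 (SE 0.11, adjusted p = 0.0135) and 0.57 (SE 0.11, adjusted p = 0.0127).

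Some genes were called in only 1 of these comparisons, and in none of them did the test of the difference between the comparisons pass. ZNF99 was called in FGF19 against Mock (0.60, SE 0.18, adjusted p = 0.0464) and gave 0.54 with TNFα present (SE 0.18, adjusted p = 0.0627). ZNF714 gave 0.33 (SE 0.12, adjusted p = 0.0822) and then 0.64 (SE 0.12, adjusted p = 0.0104). For both genes all 4 arrays with FGF19 lay above all 4 others, as they did for 25.5% of all probesets.

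ZNF726, ZNF738 and ZNF90 were called in neither comparison. ZNF726 had 52.8 and 50.9 in Mock, 59.9 and 57.6 in FGF19, 36.7 and 54.8 in TNFα, and 50 and 44.4 in FGF19 + TNFα. The FGF19 + TNFα arrays fell between the TNFα arrays, and the differences were 0.18 (SE 0.19, adjusted p = 0.508) and 0.07 (SE 0.19, adjusted p = 0.804). ZNF738 had 214 and 200, 222 and 227, 182 and 189, and 206 and 170 in the same order, with differences of 0.12 (SE 0.11, adjusted p = 0.468) and 0.01 (SE 0.11, adjusted p = 0.946). ZNF90 gave 0.35 (SE 0.23, adjusted p = 0.306) and 0.45 (SE 0.23, adjusted p = 0.186).

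The promoter stretches of these genes can be set beside the values. ZNF726 was not called but has both CCAAT and the ETS core in the same places as ZNF431, which rose. ZNF90 has both copies of CCAAT but not the ETS core. The same holds for ZNF714, which was not called with FGF19 alone, and for ZNF93 and ZNF626, which were called higher. Of the 17 genes with a window that were called higher with FGF19 alone, 14 held the ETS core, 12 held at least 2 CCAAT and 9 held both features in the same window. Of the 7 that were not called, the numbers were 5, 5 and 3. ZNF91, with the largest rise, has 1 copy of CCAAT in the stretch shown. The 7 include ZNF208, ZNF257 and ZNF493, whose values are uncertain as described below, and without them the numbers were 2, 3 and 1 of 4. No test of a difference between these sets was made.

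**Figure D3:**
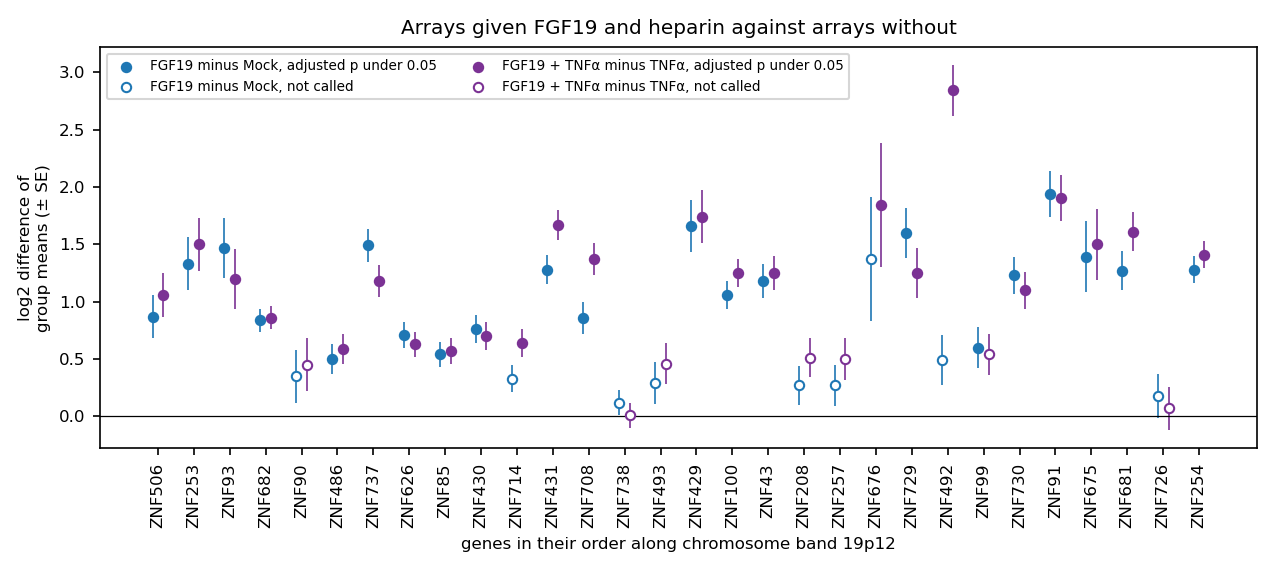
Log2 difference of group means (± SE) for 30 genes in their order along the cluster, for FGF19 minus Mock (blue) and FGF19 + TNFα minus TNFα (purple); filled points have an adjusted p under 0.05. All points lie above 0, with ZNF91 highest for FGF19 minus Mock at 1.94 and ZNF738 lowest for FGF19 + TNFα minus TNFα at 0.01.

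The other 3 genes called in neither comparison, ZNF208, ZNF257 and ZNF493, had probesets that behaved unlike the rest. ZNF208 gave 925 and 979 in Mock, 1340 and 985 in FGF19, 757 and 677 in TNFα, and 1130 and 923 in FGF19 + TNFα. Its groups with and without FGF19 overlapped, and the differences were 0.27 (SE 0.17, adjusted p = 0.29) and 0.51 (SE 0.17, adjusted p = 0.069). ZNF257 gave 1150 and 1160, 1620 and 1190, 890 and 832, and 1370 and 1090 in the same order, with differences of 0.27 (SE 0.18, adjusted p = 0.297) and 0.50 (SE 0.18, adjusted p = 0.0758). ZNF493 gave 508 and 530, 720 and 560, 427 and 351, and 594 and 478, with differences of 0.29 (SE 0.18, adjusted p = 0.261) and 0.46 (SE 0.18, adjusted p = 0.0927).

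These 3 probesets and a second bright one for ZNF208 ran nearly in parallel over the 8 arrays. The standard deviation of their log2 ratio was 0.012 to 0.063 in their 6 pairs. In the other 589 pairs of member probesets it was 0.083 to 1.28. Whether they read the same transcripts was not tested, so they cannot be taken as separate measurements of ZNF208, ZNF257 and ZNF493. Each of these genes is still counted among the 30, and their values are uncertain.

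The other probesets of the same genes gave different values. For ZNF493 the other probeset gave 69.3 and 88.3 in Mock, 218 and 148 in FGF19, 56.7 and 52.9 in TNFα, and 160 and 152 in FGF19 + TNFα. Here the groups with FGF19 were clear of the others, and the differences were 1.20 (SE 0.20, adjusted p = 0.00747) and 1.51 (SE 0.20, adjusted p = 0.00469). For ZNF208 it gave 68.8 and 98, 177 and 114, 65.7 and 40.8, and 142 and 127, with differences of 0.79 (SE 0.31, adjusted p = 0.106) and 1.37 (SE 0.31, adjusted p = 0.0208). For ZNF257 it was dim on 7 of 8 arrays, at 14.6 and 11.9, 38.7 and 15.9, 3.45 and 21, and 28.3 and 24.1, and neither difference was called. With these 3 probesets in place of the bright ones, 22 of the 30 genes were called higher in FGF19 against Mock (median 0.99). In FGF19 + TNFα against TNFα, 25 were (median 1.25).

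**Figure D4:**
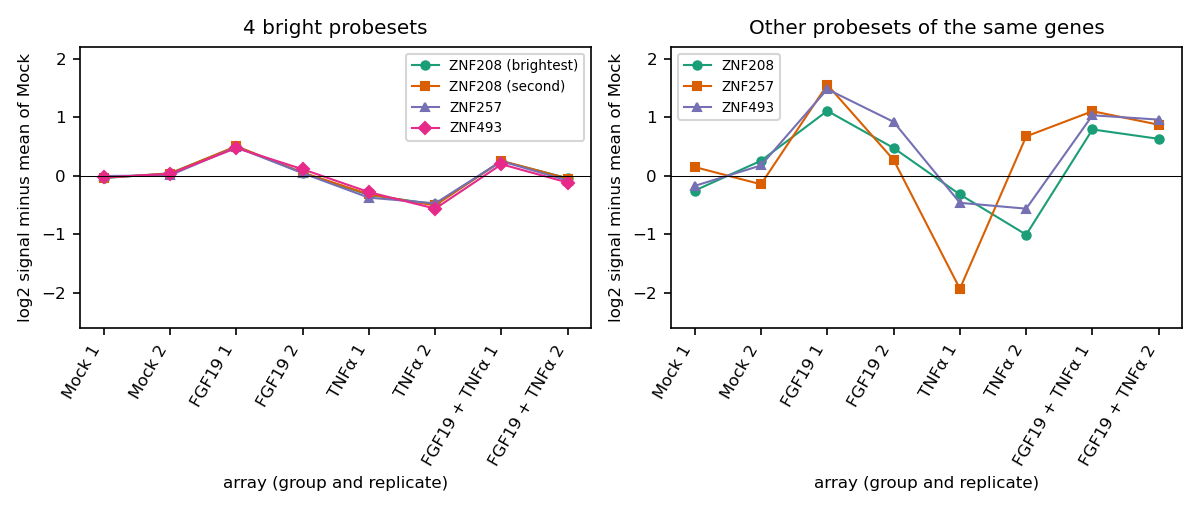
Log2 signal minus the mean of the Mock arrays on each of 8 arrays, for the 4 bright probesets named ZNF208 (2 probesets), ZNF257 and ZNF493 (left) and for the other probesets of the same genes (right). The lines on the left nearly coincide, with pair SDs of 0.012 to 0.063, while those on the right spread apart.

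The probesets with several symbols showed smaller differences as well. The probeset that carried ZNF728 among its 8 symbols gave 2700 and 2760 in Mock, 3780 and 2620 in FGF19, 2230 and 1790 in TNFα, and 3190 and 2470 in FGF19 + TNFα. Its groups overlapped, and neither difference was called (0.20, SE 0.22, adjusted p = 0.516, and 0.49, SE 0.22, adjusted p = 0.135). The one that carried ZNF98, ZNF492 and ZNF85 gave 762 and 791, 1190 and 931, 677 and 568, and 972 and 868. Its differences were 0.44 (SE 0.15, adjusted p = 0.0737) and 0.57 (SE 0.15, adjusted p = 0.0337). Neither value can be assigned to 1 gene.

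The FGF19 replicates differed in a way that touches most of these values. Replicate 1 was above replicate 2 for 29 of 30 genes in FGF19, with a median difference of 0.30 on the log2 scale, while over all probesets 50.4% were higher in replicate 1. In Mock, TNFα and FGF19 + TNFα the same held for 12, 19 and 21 of 30 genes. Leaving out FGF19 replicate 1 gave a median of 0.66 over the members for FGF19 against Mock, and leaving out FGF19 replicate 2 gave 1.07.

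The next comparison asked what TNFα changed. It shares its Mock, TNFα, FGF19 and FGF19 + TNFα arrays with the comparisons of FGF19. In TNFα against Mock, 0 members were called higher and 1 lower, beside 0.967% and 0.0961% of all probesets. Differences lay below 0 for 26 of 30 genes, against 57.4% of all probesets, and the median was -0.31, beside -0.04 over all. At an unadjusted p under 0.05, 8 were lower and 0 higher, while 5.85% of all probesets were lower at that threshold. In FGF19 + TNFα against FGF19, limma called 0 members in either direction (smallest adjusted p = 0.743), beside 0.279% of all probesets higher and 0.003% lower. At an unadjusted p under 0.05, 2 members were lower and 0 higher, while 2.44% of all probesets were lower at that threshold. Here 29 of 30 differences lay below 0, against 49.6% of all probesets, with a median of -0.22 beside 0.00 over all. Medians below 0 were not particular to this cluster. In the same order of comparisons they were -0.30 and -0.25 in the 19q13.31 zinc finger cluster and -0.19 and -0.12 in that of 19p13.2. Over 409 other genes with a numbered ZNF symbol they were -0.14 and -0.09.

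The gene called with TNFα was ZNF492. Its signal was 33.1 and 32.9 in Mock, 50.7 and 42.5 in FGF19, 6.48 and 4.36 in TNFα, and 43.6 and 33.3 in FGF19 + TNFα. The TNFα arrays stood far below the other 6, and the signal lay below the 20th percentile on 3 arrays. The difference for TNFα against Mock was -2.63 (SE 0.22, adjusted p = 0.00582). The difference for FGF19 + TNFα against TNFα was 2.84 (SE 0.22, adjusted p = 0.00348) and rests on the same low TNFα arrays. With 16 added to every signal before log2, these differences were -1.20 and 1.34, and in the latter comparison ZNF91 (1.79), ZNF429 (1.53) and ZNF431 (1.51) were then above ZNF492. For FGF19 against Mock it was 0.49 (SE 0.22, adjusted p = 0.145). The fall was not called without moderation of the variance, with only the compared groups in the fit, or without either Mock replicate, and the gene was not tested once the dimmest 20% of probesets were removed.

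Other genes leaned the same way without passing the test. ZNF681 had 40.5 and 40.4 in Mock and 27 and 21.2 in TNFα, a difference of -0.76 (SE 0.17, adjusted p = 0.147). ZNF708 had 84.6 and 94.6 in Mock and 59.7 and 54.6 in TNFα, a difference of -0.65 (SE 0.14, adjusted p = 0.145). ZNF431 gave -0.52 (SE 0.13, adjusted p = 0.206). ZNF91 gave 0.14 (SE 0.20, adjusted p = 0.81), 1 of the 4 genes above 0.

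The interaction of FGF19 and TNFα asked whether the rise with FGF19 differed when TNFα was present. No member was called by limma, and neither was any probeset on the array (0% of 33297). At an unadjusted p under 0.05, 2 members had a larger rise with TNFα and 0 a smaller one. Of all probesets, 5.15% passed that threshold in either direction, and 2.65% did so with a value below 0. The smallest adjusted p among the members was 0.469, for ZNF492 (2.35, SE 0.31). The median was 0.10, beside 0.03 over all probesets.

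**Figure D5:**
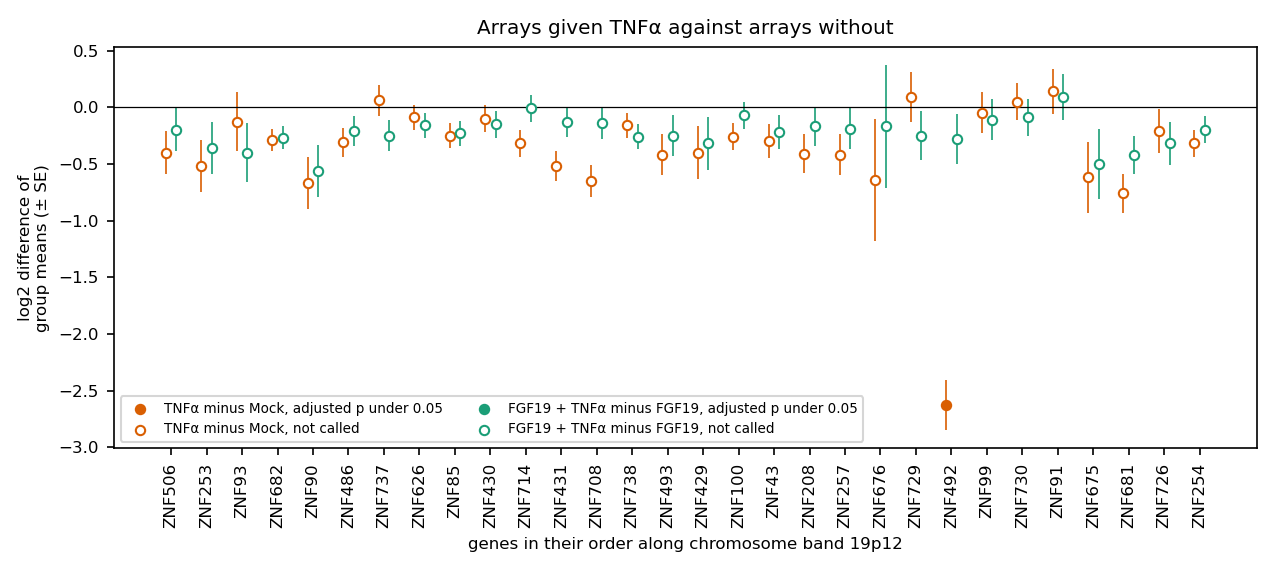
Log2 difference of group means (± SE) for the same 30 genes in cluster order, for TNFα minus Mock (orange) and FGF19 + TNFα minus FGF19 (green); the filled point has an adjusted p under 0.05. ZNF492, at -2.63 for TNFα minus Mock, is the only filled point, and 26 and 29 of 30 points lie below 0.

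Zinc finger genes elsewhere in the genome were counted for comparison. Of 409 other genes with a numbered ZNF symbol, 170 were called higher and 40 lower in FGF19 against Mock (median 0.26), and 174 and 28 in FGF19 + TNFα against TNFα (median 0.30). The shares called higher were 41.6% and 42.5%, beside 18.2% and 19.4% of all probesets. Of all probesets, 14.1% and 12.9% were called lower. In the 19p13.2 cluster, 10 of 21 genes were called higher and 0 lower with FGF19 alone (median 0.43), and 13 and 0 with TNFα present (median 0.40). In the 19q13.31 cluster the counts were 8 and 0 of 18 (median 0.28), then 7 and 0 (median 0.32). The 19p12 genes thus had larger medians, 0.86 and 1.14, than these lists, though the difference between the lists was not tested.

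Genes for TRIM28 and for other proteins of KRAB-type repression and related chromatin complexes were counted as a list. Of these 25 genes, 9 were called higher and 6 lower in FGF19 against Mock (median 0.14), and 10 and 4 in FGF19 + TNFα against TNFα (median 0.05). Over all probesets the shares called higher and lower were 18.2% and 14.1%, then 19.4% and 12.9%. TRIM28, the corepressor bound by the KRAB domain, gave 1140 and 1190 in Mock, 632 and 818 in FGF19, 1210 and 1200 in TNFα, and 734 and 722 in FGF19 + TNFα. All 4 arrays with FGF19 lay below the others, and it fell by 0.70 (adjusted p = 0.0103) and, with TNFα present, fell by 0.73 (adjusted p = 0.00979) on the log2 scale. SETDB1, the histone methyltransferase of the complex, had 428 and 435 in Mock, 310 and 338 in FGF19, 394 and 400 in TNFα, and 333 and 342 in FGF19 + TNFα. It fell by 0.42 (adjusted p = 0.0127) with FGF19 alone, and the difference of -0.23 with TNFα present was not called (adjusted p = 0.0779).

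The 4 genes of this list with the smallest p included ATF7IP, the partner of SETDB1. It had 405 and 402 in Mock, 928 and 804 in FGF19, 407 and 425 in TNFα, and 780 and 863 in FGF19 + TNFα, and rose by 1.10 (adjusted p = 0.00276) and 0.98 (adjusted p = 0.00352). TRIM33, a relative of TRIM28, had 665 and 659, 1550 and 1280, 679 and 679, and 1430 and 1550, and rose by 1.09 (adjusted p = 0.00284) and 1.13 (adjusted p = 0.00348). GATAD2B, a subunit of the NuRD deacetylase complex, had 627 and 672, 1400 and 1270, 607 and 584, and 1390 and 1440, and rose by 1.04 (adjusted p = 0.00275) and 1.25 (adjusted p = 0.00348). UHRF1, which guides maintenance DNA methylation, had 875 and 671, 220 and 308, 733 and 703, and 257 and 257, and fell by 1.56 (adjusted p = 0.0034) and, with TNFα present, fell by 1.48 (adjusted p = 0.00431). In each of these 4 genes, picked by their small p, the arrays with FGF19 did not overlap those without it. Of all probesets, 25.5% had every array with FGF19 above the others, and 18.4% below. The heterochromatin proteins CBX1, CBX3 and CBX5 were called in neither comparison, with differences between -0.16 and -0.03.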

How the data were processed

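RNA of DU145 cells was hybridised to 8 Affymetrix Human Gene 1.0 ST arrays, 2 in each of 4 groups taken from the sample labels. The deposited values are linear signal intensity that the authors made with PLIER in Affymetrix Expression Console. The sources used here do not give software versions, background correction, normalization or detection calls. Probesets were named by the platform annotation, with 19429 of 19460 probesets of 1 symbol updated through the Entrez ID to RefSeq GRCh38.p14. Another 1754 probesets had several symbols and 12083 had none.

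Signals were taken to log2 as deposited, with 240 zeros set to the smallest positive signal, 0.01. A model of the 4 groups was fitted to all 33297 probesets with lmFit and eBayes of limma 3.58.1 in R 4.3.3, and p-values were adjusted by the Benjamini-Hochberg method over all of them, with a threshold of 0.05. The script was tested on simulated data. All probesets entered the fit, so no member was lost to a filter. The members and gene lists were chosen with earlier results of these data known.

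Values per array were given by rule for ZNF91, for the 5 largest called rises with FGF19 in either comparison, for any member called with TNFα or in the interaction, for the 3 brightest and 3 dimmest members, for those with several probesets, and for TRIM28, SETDB1 and the 4 corepressor genes of smallest p. ZNF675, ZNF254, ZNF506, ZNF726, ZNF738, ZNF681 and ZNF708 were chosen after their values were seen. Promoter windows were searched for the letters given in the text, and identities come from global alignment in Biopython 1.88. The fit was repeated with the arrays normalized by quantiles or by cyclic loess, with 16 added to each signal, without the dimmest 20% of probesets, with other variance settings, on the compared groups alone, with a replicate block, with the mean of all probesets of a gene, with another probeset for 3 genes (added after seeing the data) and without each array in turn.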

Additional observations from a re-analysis of the deposited data

How the results depend on the processing

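The counts of members higher with FGF19 stayed within 1.5 times under all alternatives. For FGF19 against Mock they were 17 to 22 under the settings and 15 to 22 when 1 array was left out, beside 21. For FGF19 + TNFα against TNFα they were 19 to 27 and 16 to 26, beside 23. Lower members numbered 0 in every one of these fits. Of the called genes, 14 of 21 and 13 of 23 were tested and called under every alternative. ZNF729 in the former comparison and ZNF492 in the latter lost no call but were too dim to be tested with the dimmest 20% removed. ZNF99 was lost under 11 alternatives and ZNF676 under 9, both of them dim, and the cause was not tested.

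The median for FGF19 against Mock was 0.66 to 1.07 when 1 array was left out (0.66 without FGF19 replicate 1, 1.07 without FGF19 replicate 2) and 0.99 with the other probeset for ZNF208, ZNF257 and ZNF493. For FGF19 + TNFα against TNFα it was 0.97 with 16 added before log2, which by construction shrinks differences of dim genes, and 0.99 (without TNFα replicate 1) to 1.16 when 1 array was left out. For FGF19 + TNFα against FGF19 it was -0.35 (without FGF19 replicate 2) to -0.05 (without FGF19 replicate 1), and for the interaction -0.09 (without FGF19 replicate 2) to 0.26 (without FGF19 replicate 1). The median for TNFα against Mock was -0.39 to -0.26 over all alternatives.

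The single member lower with TNFα, ZNF492, was lost, leaving 0, without moderation (adjusted p = 0.0674), with only the groups compared (0.0631), and without Mock replicate 1 or 2 (0.0662 and 0.0705). With the dimmest 20% removed, 27 members were tested and 0 were lower. Leaving out 1 array gave 0 to 1.

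The labels number the replicates alike in each group. Deviations of same-numbered arrays correlated at -0.0197 to 0.195 between groups. The value of 0.195, for FGF19 and FGF19 + TNFα, was above the threshold of 0.1 set for pairing, and the others were at most 0.0631. The numbers were not taken as pairs in the main fit. With the replicate number as a block, 21 members were higher for FGF19 against Mock and 27 for FGF19 + TNFα against TNFα. With 2 arrays a group and no detection calls, levels of dim genes such as ZNF729, ZNF492, ZNF676 and ZNF99 are the least certain.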
